A study of Caenorhabditis elegans with 2 samples.

Results

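Small nucleolar RNA (snoRNA) genes were examined in young adult Caenorhabditis elegans by ChIP-seq, the sequencing of DNA recovered with a chromatin protein. All 346 genes that the WBcel235 Ensembl models call snoRNA were taken, of 46926 annotated genes. No measured value entered this rule, though the members were chosen with earlier results of these data known. RefSeq gave all 346 the same start, end and gene type, but whether its models are independent of the Ensembl ones was not examined. The worms were hermaphrodites of strain OP399, genotype unc-119(tm4063) III; wgIs399, grown from starved L1 larvae and collected at 67 hours after synchronization. They carried F22D6.2, a predicted AN1-type domain protein, with a C-terminal GFP and FLAG tag, and sonicated chromatin was pulled down through the GFP. The 2 samples were biological replicates 1 and 2 of this 1 group, from 1 transgenic line, with no other genotype or condition analysed here. Whole worms mix all tissues.

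snoRNAs guide chemical modification of ribosomal and spliceosomal RNA. C/D snoRNAs, bound by fibrillarin, guide ribose methylation, and H/ACA snoRNAs, bound by dyskerin, guide conversion of uridine to pseudouridine. In animals many snoRNAs lie in introns of protein-coding host genes and are released from the spliced intron, while others have a promoter of their own. Box A and box B are the internal promoter elements of tRNA genes, which recruit the factor TFIIIC and then RNA polymerase III.

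The genes were 54 to 344 bp long, with a median of 130 bp, and formed 325 loci when genes within 500 bp were joined. A gene was in a host intron when it lay wholly in an intron of a protein-coding gene on the same strand, which held for 142. Intergenic genes, outside every protein-coding gene, numbered 124. A further 27 lay in an intron of a gene on the opposite strand and 53 overlapped an exon. Chromosome X held 33 of the genes and the autosomes 313.

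Of the 12 genes with the highest signal values, 6 carried tRNA-like box B letters before the gene, 2 of them in host introns and 3 intergenic. The windows below run from 100 bases before the annotated 5' end to 20 bases after it, on the strand of the snoRNA, from the RefSeq copy of WBcel235 (ce11). They were chosen after their values were seen, as high genes on chromosomes II, III and V with both kinds of letters. Capitals mark box A letters (TGG, any 3 bases, A, any 2 or 3 bases, GG) and, after them, the box B letters (GTTCNANNC) nearest the 5' end. C51F7.3 has another box B match, starting at -70, that is left in lower case. The letters marked for C51F7.3 lie inside C51F7.4, a neighbouring snoRNA gene that shares its summit, so they are not particular to C51F7.3. C51F7.3 lies in an intron of frm-7, a FERM domain gene, with a window at chrV:12303608-12303727 on the plus strand. Y43F8C.22 lies in an intron of Y43F8C.7 (chrV:19643168-19643287, minus strand), and C05D2.15 in an intron of madf-11 (chrIII:5602160-5602279, minus strand). Y75B12B.12 (chrV:15191074-15191193, minus strand) and W03C9.9 (chrII:11960798-11960917, plus strand) are intergenic.
C51F7.3: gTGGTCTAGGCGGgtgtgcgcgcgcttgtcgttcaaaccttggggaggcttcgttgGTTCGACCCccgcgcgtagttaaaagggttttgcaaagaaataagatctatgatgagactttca
Y43F8C.22: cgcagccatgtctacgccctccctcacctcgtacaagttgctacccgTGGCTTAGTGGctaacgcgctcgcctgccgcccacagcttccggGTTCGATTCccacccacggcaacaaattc
C05D2.15: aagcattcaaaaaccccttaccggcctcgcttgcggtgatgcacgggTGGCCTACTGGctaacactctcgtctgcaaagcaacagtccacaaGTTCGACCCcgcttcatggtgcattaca
Y75B12B.12: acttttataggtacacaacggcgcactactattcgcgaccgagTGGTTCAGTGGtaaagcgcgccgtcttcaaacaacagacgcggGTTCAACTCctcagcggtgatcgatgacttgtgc
W03C9.9: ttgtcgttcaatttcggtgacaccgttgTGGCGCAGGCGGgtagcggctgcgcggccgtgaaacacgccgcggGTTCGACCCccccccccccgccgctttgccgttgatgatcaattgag

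Another 3 of the 12 highest had no box B letters there and shared a different pair, ACCCG followed after 4 to 9 bases by TGTC, in capitals below. ZK994.7, the member with the highest value of all, lies in an intron of the peroxidasin gene pxn-1 (window chrV:8500479-8500598, plus strand). Y53F4B.47, also among the 12, is intergenic (chrII:15025874-15025993, minus strand). F01D5.12, a lower member, lies in an intron of F01D5.10 (chrII:14018422-14018541, minus strand).
ZK994.7: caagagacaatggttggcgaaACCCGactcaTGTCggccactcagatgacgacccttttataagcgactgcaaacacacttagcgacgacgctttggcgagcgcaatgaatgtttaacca
Y53F4B.47: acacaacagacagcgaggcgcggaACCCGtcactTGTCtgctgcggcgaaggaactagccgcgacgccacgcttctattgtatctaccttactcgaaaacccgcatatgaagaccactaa
F01D5.12: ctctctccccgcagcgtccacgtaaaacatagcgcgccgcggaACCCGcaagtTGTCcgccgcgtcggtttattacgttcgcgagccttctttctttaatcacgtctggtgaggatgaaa

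For contrast, 2 snoRNAs in introns of ribosomal protein genes are shown that no list gave a summit within 200 bp. Neither kind of letters was found in their windows, so nothing is in capitals. K11H12.13 lies in rpl-15 (chrIV:654342-654461, minus strand) and B0250.19 in rpl-2 (chrV:20479909-20480028, plus strand). Neither host had a pooled summit within 500 bp of its 5' end, unlike 12 of the 14 ribosomal protein hosts described below.
K11H12.13: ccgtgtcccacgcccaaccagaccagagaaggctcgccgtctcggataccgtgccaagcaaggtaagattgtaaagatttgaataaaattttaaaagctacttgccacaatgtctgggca
B0250.19: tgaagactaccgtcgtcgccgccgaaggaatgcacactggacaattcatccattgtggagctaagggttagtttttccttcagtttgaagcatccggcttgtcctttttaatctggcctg

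The measured quantity was the summit, the highest point of each region the authors' peak caller reported. A pooled list made from both replicates held 26002 regions, and the lists of replicates 1 and 2 held 25000 and 23268. Per the labels these lists include background regions, meant as input to a step that compares replicates. The thresholded set of 798 peaks that passed that step was the 798 highest of the pooled list. Each region has a signal value, the caller's own value over the control on a scale not given, used here only to rank and describe regions within a list. A gene was called listed when a summit lay within 200 bp of it, and thresholded when that summit belonged to the thresholded set. Read numbers were not given, so depth was unknown and no counting interval could be set. Shares are shown for each replicate as the measure of spread, and no test was run, since there was 1 group of samples and neighbouring genes can share a summit.

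A summit was listed at 145 snoRNA genes in the pooled list (41.9%), at 145 in replicate 1 (41.9%) and at 135 in replicate 2 (39.0%). Over all 46890 nuclear genes the shares were 28.7% in the pooled list, 29.0% in replicate 1 and 27.4% in replicate 2. The share over all genes depends on its mix of classes. It takes in 15363 piRNA genes, with a median length of 21 bp, listed at 5.14%. Protein-coding genes, with a median of 2027 bp, were listed at 48.6%, above the snoRNA share. All nuclear genes had a median length of 196 bp. A window the size of a median snoRNA gene placed anywhere in the nuclear genome met a pooled summit at 12.6% of positions. snoRNA genes stood out more among high peaks, where 53 (15.3%) were thresholded. The thresholded share was 1.84% of all nuclear genes, 2.35% of protein-coding genes and 0.403% of positions. The 145 values ran from 15.15 through a median of 62.7 to 265.6, while all listed regions had a median of 22.2.

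Among other small RNA genes, tRNA genes had a higher listed share (75.2% of 612) and a thresholded share of 15.0%. snRNA genes, which encode the RNAs of the spliceosome, were listed at 40.3% and thresholded at 10.9% of 129 genes. miRNA genes reached 23.0% listed and 2.30% thresholded, and piRNA genes 5.14% and 0.0586%. None of the 20 nuclear rRNA genes was listed. The median of the highest pooled values was 52.8 for listed tRNA genes and 40.9 for listed snRNA genes, both under the 62.7 of snoRNA genes.

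**Figure D1:**
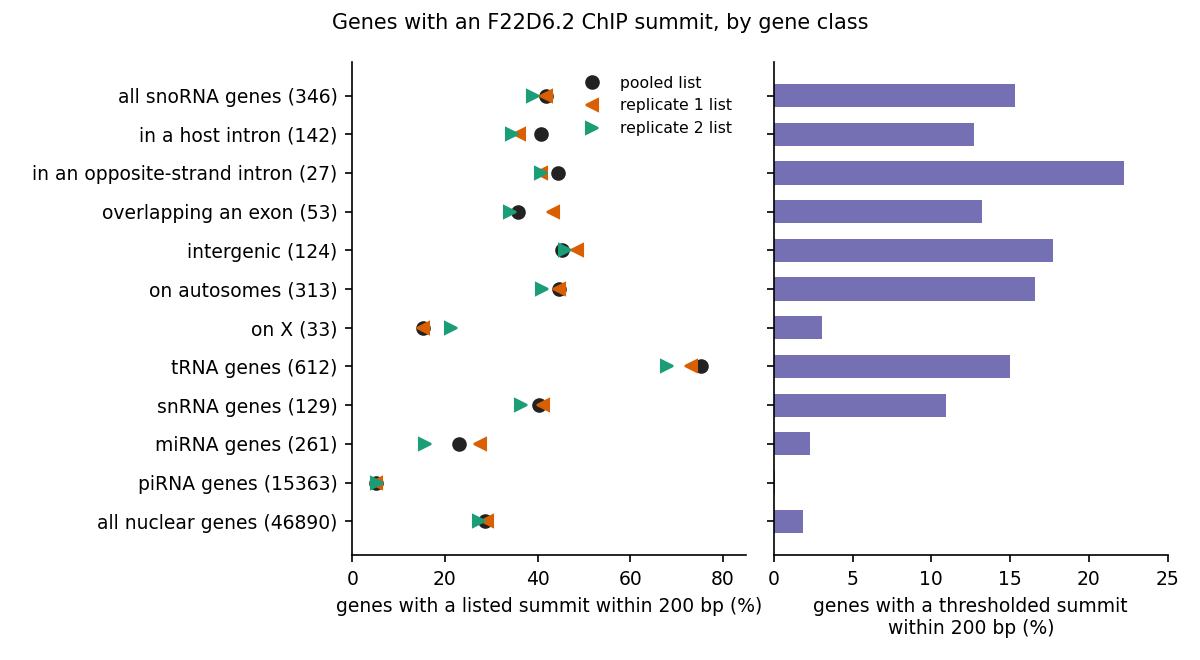
Share of genes with a summit within 200 bp, in percent, for snoRNA genes, their location classes and other gene classes, with the number of genes in parentheses. Points on the left are the pooled list and the 2 replicate lists, and bars on the right are the thresholded set. snoRNA genes on X stand at 15.2% in the pooled list against 44.7% on autosomes, and tRNA genes at 75.2%.

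The member with the highest value was ZK994.7 (chrV:8500579-8500645), with 265.6 in the pooled list, 158.3 in replicate 1 and 108.7 in replicate 2. Its pooled summit fell 2 bases inside the gene and ranked 63 among all pooled regions. C51F7.3 (chrV:12303708-12303783) and C51F7.4 (chrV:12303599-12303693) share the next summit, with 252.8 pooled, 110.9 in replicate 1 and 149.5 in replicate 2. Both lie in frm-7, and C51F7.4 overlaps an exon of one of its transcripts, so the summit cannot be assigned to one of them. The order of the highest 2 summits was reversed in replicate 2, so the replicates do not separate them.

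The intergenic members F59C6.15 and Y75B12B.12 followed with the same pooled value of 173.2. F59C6.15 had 86.18 in replicate 1 and 92.67 in replicate 2, and Y75B12B.12 had 74.65 and 102.2. W03C9.9 had 162.4 pooled, with 74.09 and 89.55 in the replicates. These summits lay just before the gene, at 31, 30 and 24 bases upstream of the 5' end. Y43F8C.22 had 155.2 pooled, 80.48 in replicate 1 and 77.06 in replicate 2, and C10C6.8, in an intron of the P-type ATPase gene catp-8, had 138.3, 73.47 and 60.19. The other intergenic genes of the 12 highest were Y53F4B.47 (145.5 pooled), C41C4.11 (145.2) and ZK265.10 (141.2). Each of the 12 was thresholded and listed in both replicates. Protein-coding genes start within 500 bp of the summit at Y75B12B.12 (Y75B12B.11), Y53F4B.47 (cmtr-1) and C41C4.11 (chst-1 and C41C4.9), so these summits cannot be given to the snoRNA alone.

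Opposite-strand introns gave T03F7.8 in the cuticlin-like gene cutl-18 (139.0 pooled, 77.61 and 61.40 in replicates 1 and 2) and B0334.12 in the potassium channel gene twk-5 (125.0, 71.46 and 53.15). C04G6.12 in the MAP kinase gene mpk-2 had 114.6, and ZK484.9 in the ABC transporter gene haf-9 had 112.1. Among members that overlap an exon, C51F7.4 was followed by F39B2.14 at tmem-107 (118.6), ZK546.18 at ZK546.19 (107.4) and F07A11.15 at din-1 (103.8). The 5' ends of tmem-107 and rps-26 were also within 500 bp of the F39B2.14 summit, so it cannot be given to the snoRNA alone.

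The replicate lists named largely overlapping sets. Of the 346 genes, 102 were listed in both replicates, 97 of them also in the pooled list, and 156 in none of the 3 lists. The pooled list named 12 genes that neither replicate listed. Over the 101 distinct pairs of summits, the replicate signal values had a Spearman correlation of 0.760, a description over sites that share 2 libraries and 1 control. The replicate summits at a gene lay a median of 52.5 bp apart, and within 100 bp of each other at 72 of the 102 genes. Of the 53 thresholded genes 52 were listed in both replicates, W06H8.17 being absent from replicate 1, and 36 ranked among the 798 highest summits of each replicate.

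**Figure D2:**
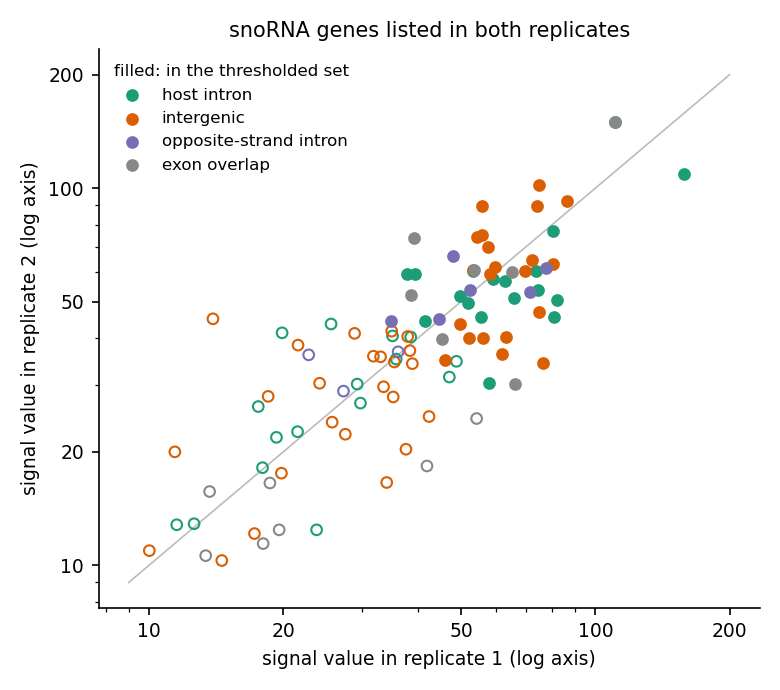
Signal value in replicate 1 (x axis) and replicate 2 (y axis), both on log axes, for the 102 snoRNA genes listed in both replicates, with colour for location and filled points for the thresholded set. The line marks equal values. ZK994.7 lies farthest right at 158.3, and no filled point falls below 30 on either axis.

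Host-intron and intergenic snoRNA genes differed little in the pooled list and more in each replicate. Of the 142 host-intron genes 58 were listed (40.8%), with 35.9% in replicate 1 and 34.5% in replicate 2. Of the 124 intergenic genes 56 were listed (45.2%), with 48.4% and 46.0% in the replicates. Both replicates thus put the intergenic share higher, by 12.5 and 11.5 percentage points, but within 500 bp in the pooled list host-intron genes were 1.79 points higher. Thresholded summits were at 18 host-intron genes (12.7%) and 22 intergenic genes (17.7%), and the median value of the listed genes was 37.7 and 67.7. Opposite-strand genes were listed at 44.4% (12 of 27) and thresholded at 22.2%, and exon-overlapping genes at 35.8% (19 of 53) and 13.2%.

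The listed share of snoRNA genes was lower on X than on the autosomes in all 3 lists. On X 5 of 33 were listed in the pooled list (15.2%), 15.2% in replicate 1 and 21.2% in replicate 2. On the autosomes 140 of 313 were listed (44.7%), with 44.7% and 40.9% in the replicates. In the pooled list the X share was close to the 13.1% of X positions that a summit reached, while the autosomal share was above the 12.5% of autosomal positions. The X share was near the 13.2% of X positions in replicate 1 too, but above the 11.5% in replicate 2. Thresholded genes numbered 1 of 33 on X (3.03%) and 52 of 313 on autosomes (16.6%), although X held more thresholded summits per Mb (10.7 against 7.13). miRNA genes had the same order in all 3 lists, with 14.9% of 74 listed on X and 26.2% of 187 on autosomes in the pooled list. snRNA genes, with only 3 on X, gave no steady order. The pooled list named 1 of 3 on X and 40.5% of 126 on autosomes, but replicate 1 listed 2 of 3 on X and 40.5% on autosomes. tRNA genes had the other order, with 79.0% of 276 listed on X and 72.0% of 336 on autosomes. So did protein-coding genes, with 51.8% of 2731 on X and 48.1% of 17242 on autosomes.

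Location differed between the chromosomes too, since 23 of the 33 X genes were intergenic and 4 lay in a host intron. Among intergenic genes, 5 of 23 were listed on X (21.7%) and 51 of 101 on autosomes (50.5%). None of the 4 host-intron genes on X was listed in any list. The difference rested on summits outside the gene itself: counting only summits inside the gene, the X share was 0.620 points above the autosomal share. The part of location in the X difference was otherwise not tested.

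The 5 listed genes on X were all intergenic. D2021.6 had 81.13 pooled, 46.12 in replicate 1 and 35.02 in replicate 2, and sdha-1, a succinate dehydrogenase subunit gene, starts within 500 bp of its summit. C53B7.8 had 75.86, 38.89 and 34.24, K09E9.5 had 53.41, 13.90 and 45.02, and F52G3.6 had 23.76 and was absent from replicate 1. D2021.6, the 1 thresholded gene on X, stood just above the lowest thresholded value of 80.31. Next to it were C27H5.9 at 82.08 inside the set, and K11C4.6 at 80.22 and smy-2 at 79.94 outside it. At the edge of the distance, F21F12.3 (194 bp) and C56G2.20 (199 bp) were inside, and R151.13 and F28C6.11 (203 bp each) outside.

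Most thresholded summits lay before the snoRNA rather than on it. The 53 thresholded genes had 52 distinct summits, and the one shared by C51F7.3 and C51F7.4 counts for each. The summit lay upstream of the annotated 5' end at 41 genes (77.4%), inside the gene at 10 and downstream at 2. The median position was 28 bases upstream, at -28, with quartiles of -51 and -7, and at 36 genes (67.9%) the summit lay within 100 bases upstream. Host-intron genes had 13 of 18 thresholded summits upstream (72.2%) and intergenic genes 19 of 22 (86.4%). At thresholded tRNA genes, measured the same way, the summit was upstream at 34.8% of 92 genes and the median lay 27.5 bases past the 5' end. Over all 145 listed genes the summit was upstream at 81 (55.9%), with 53.1% in replicate 1 and 60.7% in replicate 2. The upstream share was 53.4% at host-intron genes, 66.1% at intergenic genes and 31.6% at exon-overlapping genes, where the median lay 71 bases past the 5' end. On X 4 of the 5 listed summits were inside the gene and 1 upstream.

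**Figure D3:**
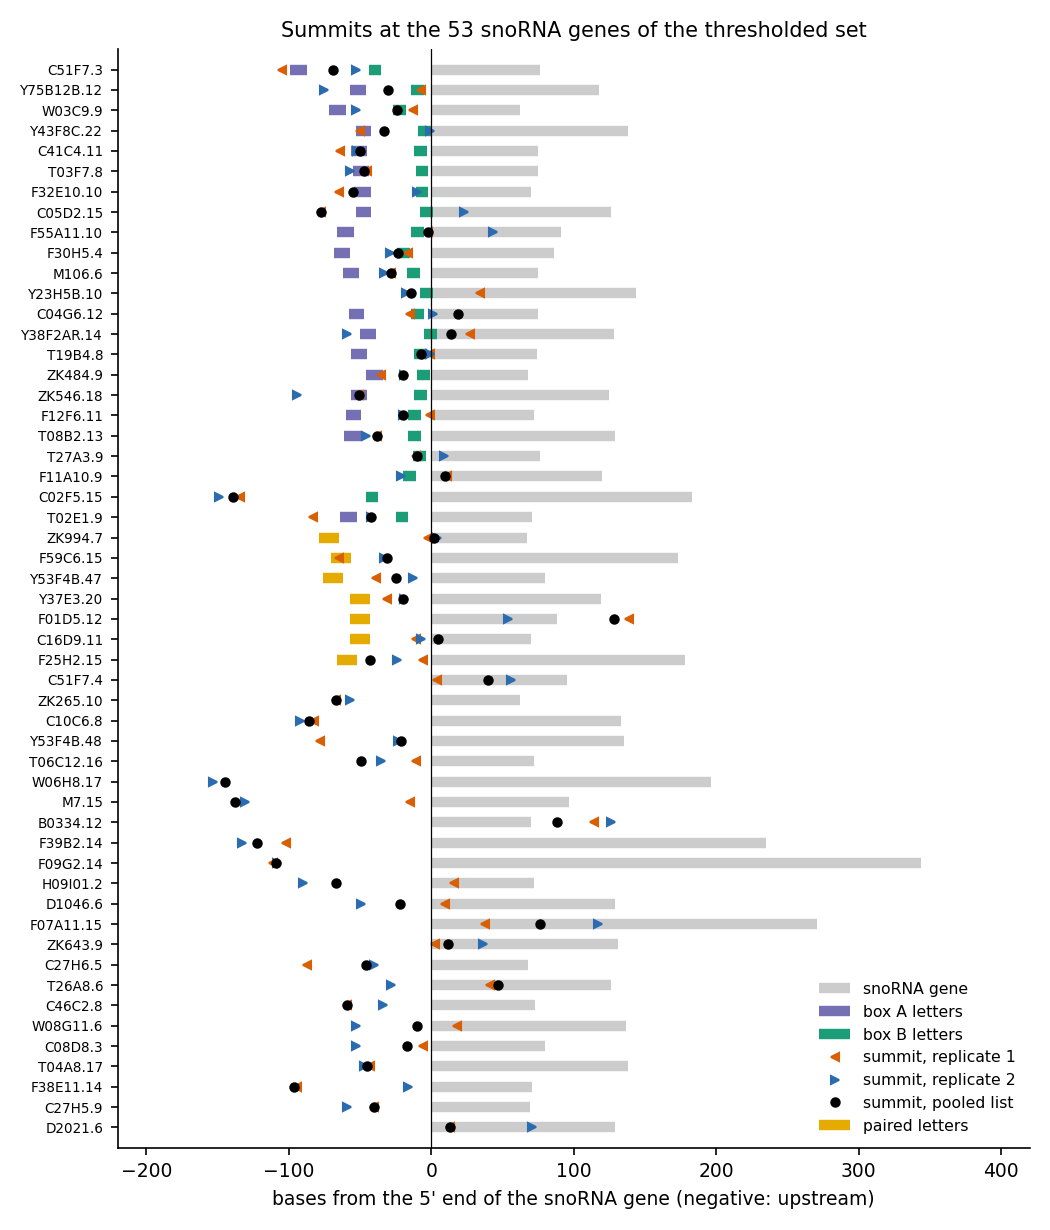
Position of the pooled, replicate 1 and replicate 2 summits (points) at the 53 thresholded snoRNA genes, in bases from the 5' end, with negative values upstream. Rows are sorted by the letters found before the gene and then by signal value, grey bars are the genes and coloured bars the letters. The pooled summits lie upstream at 41 genes, and most box B letters end near the 5' end.

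The letters before the gene differed between genes with and without a summit. Box B letters on the strand of the snoRNA, from 100 bases before to 20 bases after the 5' end, were found at 38 genes, of which 31 were listed (81.6%) and 23 thresholded (60.5%). The listed share was 81.6% in replicate 1 and 78.9% in replicate 2. Of the 308 genes without them 114 were listed (37.0%, with 37.0% and 34.1% in the replicates) and 30 thresholded (9.74%). The median pooled value was 112 with the letters and 47.4 without. This window was chosen after the sequences of high members had been seen, so the shares describe these genes and support nothing beyond them.

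Box A letters lay 20 to 80 bases before box B at 26 of the 38 genes, with a median spacing of 44 bases between their starts among the listed ones. Of these 26 genes 24 were listed and 19 thresholded. Box B letters began a median of 14 bases before the 5' end, at -14, and the pooled summit lay within 50 bases of them at 26 of the 31 listed genes. The same window held box B letters at 38 of 346 snoRNA genes, at 9.30% of snRNA genes, 4.21% of miRNA genes, 1.79% of protein-coding genes and 2.14% of genome tiles of that length. Outside snoRNA genes the listed shares of genes with these letters went both ways. Listed were 2 of 12 such snRNA genes, against 40.3% of all snRNA genes, and 162 of 358 protein-coding genes, against 48.6% of all. Among tRNA genes 3 of 5 were listed, against 75.2% of all. Higher shares were found for miRNA genes, with 4 of 11 against 23.0%, and slightly for piRNA genes, with 15 of 264 against 5.14%. No annotated tRNA gene lay within 200 bp of any listed snoRNA gene, and a tRNA pseudogene lay near 2 of the 53 thresholded ones. In tRNA genes box B lies inside the gene, and 0.817% of them had the letters in this upstream window.

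A wider search, in the gene and 100 bases on each side on both strands, found box B letters at 71 snoRNA genes. Of these 53.5% were listed and 36.6% thresholded, against 38.9% and 9.82% of the others. That search met 11.6% of genome tiles of like length, 96.6% of tRNA genes and 11.6% of snRNA genes. On the opposite strand of the upstream window the letters stood at 3 genes, none of them thresholded.

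The paired letters ACCCG and TGTC were found at 24 genes in the upstream window, none of which had box B letters there. Of these 18 were listed (75.0%, with 70.8% in replicate 1 and 66.7% in replicate 2) and 7 thresholded (29.2%), with a median value of 75.8. They began a median of 59 bases before the 5' end, at -59, and the summit lay a median of 46.5 bases after their start. The same pair stood before 29 of 129 snRNA genes (22.5%), 19 of which were listed against 40.3% of all snRNA genes, and before 0.0801% of protein-coding genes and 0.129% of genome tiles. The pair was picked from the sequences of thresholded genes without box B letters. Those genes are also among the listed ones. Its listed and thresholded shares and its median value, here and by location, thus carry no weight as evidence.

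The 284 genes with neither kind of letters were listed at 33.8% (34.2% and 31.3% in the replicates) and thresholded at 8.10%, still above the 1.84% of all nuclear genes. The highest of them, C51F7.4 at 252.8, has none in its own upstream window but contains the letters counted for C51F7.3. Together the letters stood at 30 of 53 thresholded genes, 23 with box B and 7 with the pair. Among genes not listed, 3.48% of 201 had box B letters and 2.99% the pair. TATA letters (TATAAA or TATATA) in the 100 bases before the gene were found at 2 of 53 thresholded genes, 11 of 92 genes listed but not thresholded and 9.45% of genes not listed, and at 8.77% of genome tiles of 100 bases.

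**Figure D4:**
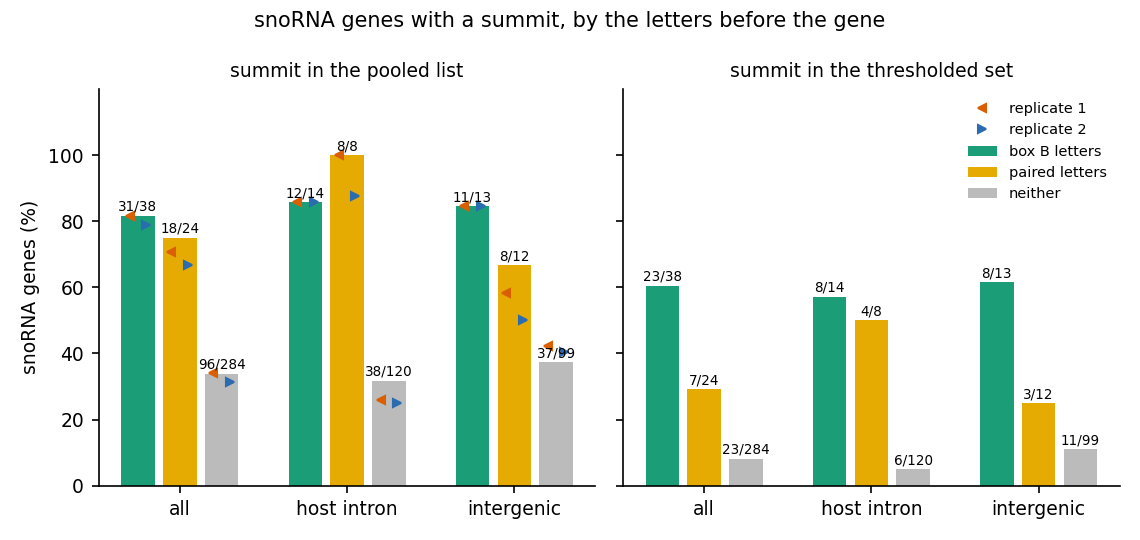
Share of snoRNA genes with a summit in the pooled list (left) and in the thresholded set (right), in percent, for genes with box B letters, with the paired letters or with neither. Numbers over the bars give genes with a summit and genes in all, and triangles the share in each replicate. With box B letters 31 of 38 genes were listed and 23 thresholded, with neither 96 of 284 and 23. Both kinds of letters were chosen after the sequences of high members had been seen.

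Genes with either kind of letters were found both in host introns and between genes. With box B letters, 12 of 14 host-intron genes were listed and 8 thresholded, and 11 of 13 intergenic genes were listed and 8 thresholded. With the paired letters, 8 of 8 host-intron genes were listed and 4 thresholded, and 8 of 12 intergenic genes were listed and 3 thresholded. With neither, the shares were 31.7% of 120 host-intron and 37.4% of 99 intergenic genes, and 6 and 11 genes were thresholded. On X 3 genes had box B letters, 1 of them listed, and 1 had the pair and was not listed. The 7 genes with box B letters but no pooled summit included C06A1.8 in the AAA ATPase gene cdc-48.1 and T23G5.7 in the ribonucleotide reductase gene rnr-1. C06A1.8 had a value of 15.14 in replicate 1 and none in replicate 2.

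Among the letters of the RNAs themselves, C/D letters went with a higher listed share in all 3 lists, and H/ACA letters gave no steady order. C/D letters, TGATGA near the start and CTGA near the end, were found in 15 genes, of which 11 were listed (73.3%) and 5 thresholded (33.3%). Of the 331 genes without them 40.5% were listed and 14.5% thresholded. H/ACA letters, ACA followed by exactly 3 bases at the end, were found in 58 further genes, of which 28 were listed (48.3%) and 11 thresholded (19.0%). Of the 288 genes outside this group 40.6% were listed and 14.6% thresholded. Replicate 1 gave 48.3% with H/ACA letters and 40.6% without, but replicate 2 gave 37.9% and 39.2%. Host introns held 43 of the 58 genes, and there the pooled order was reversed, with 37.2% listed against 42.4%. The other 273 genes fitted neither strict pattern, and 38.8% of them were listed. Examples of both kinds, chosen for their high values, are the whole snoRNA genes C51F7.3 (chrV:12303708-12303783, plus strand) and Y43F8C.22 (chrV:19643050-19643187, minus strand). Capitals mark the C and D letters and the ACA.
C51F7.3: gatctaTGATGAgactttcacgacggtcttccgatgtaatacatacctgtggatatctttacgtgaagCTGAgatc
Y43F8C.22: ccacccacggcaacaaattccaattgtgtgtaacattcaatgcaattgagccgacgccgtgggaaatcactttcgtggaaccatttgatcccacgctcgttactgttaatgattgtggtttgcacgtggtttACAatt

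The introns that held a snoRNA gene were set against the other introns of the same genes. In 115 host genes with both, the pooled list had 123 summits in 211 kb of snoRNA-bearing intron, or 0.583 per kb, and 152 in 534 kb of other intron, or 0.284 per kb. Replicate 1 gave 0.559 and 0.283 per kb, and replicate 2 gave 0.478 and 0.288. In the thresholded set the densities were 0.109 and 0.0131 per kb, from 23 and 7 summits. The bearing introns had the higher pooled density in 56 hosts, the lower in 21 and the same in 38. With introns near the host 5' end left out the densities were 0.803 and 0.297 per kb.

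**Figure D5:**
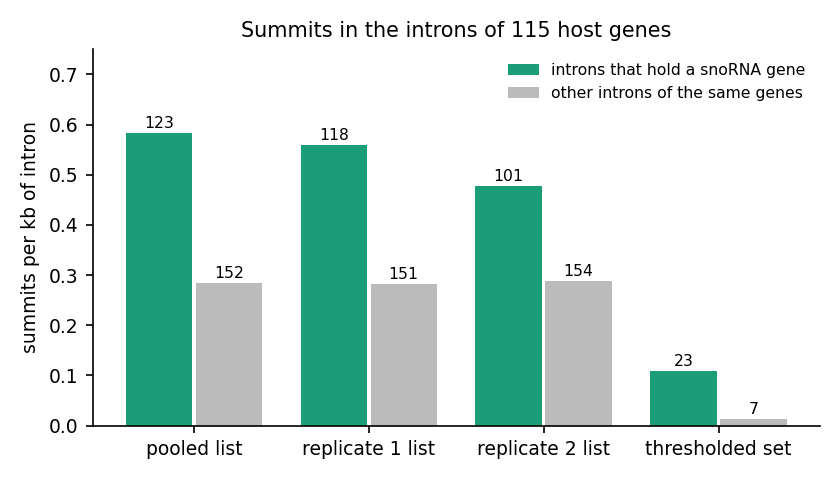
Summits per kb of intron in introns that hold a snoRNA gene and in the other introns of the same 115 host genes, for the pooled list, each replicate list and the thresholded set. Numbers over the bars are summits. The bearing introns stand higher in each list, at 0.583 against 0.284 in the pooled list.

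Few summits at host-intron snoRNAs lay at the start of the host. Of the 58 listed genes, 48 had the summit inside the host intron and 5 had it within 500 bp of the host 5' end. Over all locations 12 of the 53 thresholded genes had the summit within 500 bp of any protein-coding 5' end. The 5' ends of the 123 hosts were listed at 55 genes (44.7%, with 43.1% and 44.7% in the replicates) and thresholded at 10 (8.13%). Over all protein-coding genes the shares were 30.2% and 2.02%. frm-7 had 58.20 at its own 5' end and pxn-1 had 29.79, below the 252.8 and 265.6 at the snoRNAs inside them. madf-11 had 47.10 at its 5' end, against 127.7 at C05D2.15. catp-8, Y43F8C.7 and F01D5.10 had no listed summit at their 5' ends. These 6 hosts were named through snoRNAs with high values, so a lower value at the host 5' end was partly built into the choice.

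Ribosomal protein hosts were mostly listed at the 5' end and seldom at their snoRNAs. Of 14 such hosts 12 had a listed summit at the 5' end (11 in each replicate), and 3 were thresholded, rpl-7A at 148.0, rps-12 at 135.9 and rps-23 at 120.5. Of their 21 snoRNAs 4 were listed, 6 in replicate 1 and 2 in replicate 2, with none thresholded and none with box B letters. B0412.6 and B0412.7, 2 of the 4, share 1 summit of 27.49, which is also the summit counted at the 5' end of their host rps-29. The other 109 hosts had a listed 5' end at 43 genes (39.4%) and a thresholded one at 7 (6.42%). No snoRNA in those 7, among them wwp-1 at 164.9 and eef-1G at 137.7, was thresholded either. A high 5' end without a thresholded snoRNA was thus not particular to ribosomal protein hosts. The 121 snoRNAs of these 109 hosts were listed at 54 genes and thresholded at 18, and 14 had box B letters. Introns were shorter in ribosomal protein hosts, with a median of 221 bp against 541 bp, and the part of intron length was not tested.

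Hosts with 3 or more snoRNAs were low inside the gene. nol-56, which encodes a core protein of C/D particles, holds 4 snoRNAs and had 63.53 at its 5' end, while K07C5.12 was the 1 listed of its 4, with 15.73. The ribosomal protein gene rpl-6 holds 3, with 71.52 at its 5' end and 25.73 at R151.12, the 1 that was listed. top-2, a topoisomerase II gene, had 80.26 at its 5' end, and none of K12D12.6, K12D12.7 and K12D12.8 was listed in any list. Among the thresholded host 5' ends, cdc-48.1 stood highest at 373.9, then the translation factor gene iff-2 at 249.2 and the chaperone gene hsp-1 at 192.4. No snoRNA in these 3 hosts was thresholded, and F54C9.12 in iff-2 was listed, at 17.67.

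Genes for snoRNA-binding and processing proteins were listed at their 5' ends, with moderate values. Of 15 in the list 14 matched a gene, and the name nopp-140 matched none. All 14 had a pooled summit within 500 bp of the 5' end, 10 of them in both replicates, and none was thresholded, beside the 30.2% and 2.02% of all protein-coding genes. The fibrillarin gene fib-1 had the highest value, 67.78, with 25.48 in replicate 1 and 42.86 in replicate 2. The C/D core genes nol-56 and nol-58 had 63.53 and 55.57, and the H/ACA gene nola-3 had 58.33, while the dyskerin homolog dkc-1 had 23.75. The lowest was snu-13, a C/D particle component, with 17.94 pooled, 12.11 in replicate 2 and no summit in replicate 1.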

How the data were processed

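Tagged F22D6.2 was measured by ChIP-seq in 2 biological replicates of 1 group, and the 4 lists on build ce11 were used. Per the labels, the authors deposited a list for each replicate, a pooled list and a thresholded set that passed an irreproducible discovery rate step. The deposited signal value is the caller's value over a control, which served both replicates per the deposited file descriptions. The deposited −log10 q-value was at its ceiling in high peaks and was not used for ranking. The deposited score was not used. The deposited summit offset gave each summit's position. For the aligner, the caller, their versions and the threshold the entry is "not given in the sources used here".

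Gene models were Ensembl release 115 (WBcel235, the assembly of ce11), and sequence came from RefSeq. Coordinates count from 1. For each snoRNA gene the summit with the highest signal value within 200 bp was kept in each list. Named genes were the 12 highest, the highest 4 of each location class and of X, their hosts, and hosts with 3 or more snoRNA genes; genes shown for their letters were added after their values were seen. The members, gene lists and letters were chosen with earlier results of these data known. Analysis used Python 3.11.15, with figures from Matplotlib 3.10.9, and the code was checked on planted summits. Replicates were kept apart, and leaving one out meant using the other's list. Alternatives varied the distance, the counting of loci, the summits kept and the genes kept.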

Additional observations from a re-analysis of the deposited data

How the results depend on the processing

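Of 70 alternative values over 9 results, 34 stayed close to the main value, 34 moved and 2 changed sign. The listed share of host-intron minus intergenic genes, -4.32 percentage points, became 1.79 within 500 bp, -8.03 within 100 bp, -1.50 by overlap of regions, -13.4 with the 5000 highest pooled summits, -1.08 with loci counted once and -8.47 on autosomes, and ran from -12.5 to -11.5 with a replicate left out. The thresholded difference, -5.07, ran from -6.58 to -0.931 with a replicate left out. The listed share of X minus autosomes, -29.6, became 0.620 inside the gene, -13.7 within 500 bp, -18.7 with the 5000 highest summits and -42.0 in host introns, and ran from -29.6 to -19.7 with a replicate left out. The thresholded one, -13.6, became -12.0 within 100 bp, -15.5 within 500 bp, -10.5 in the upper part of the set and -16.4 among intergenic genes, and ran from -12.9 to -10.7. Listed genes, 145, numbered 40 inside the gene and 90 with the 5000 highest summits; thresholded genes, 53, numbered 33 in the upper part of the set; hosts listed at the 5' end, 55, numbered 29 within 250 bp. The intron density difference, 0.298 per kb, was 0.188 with the 5000 highest summits, 0.506 without introns near the host 5' end, an alternative chosen after seeing the data, and 0.190 to 0.276 with a replicate left out. The listed share with box B letters minus without, 44.6 points, whose alternatives were all chosen after seeing the data, was 45.5 within 100 bp, 32.6 within 500 bp, 1.79 inside the gene, 43.3 by overlap, 56.5 with the 5000 highest summits, 49.8 in host introns, 44.1 among intergenic genes, 46.7 without genes near a tRNA gene or pseudogene and 14.6 with the wider search, and 44.6 to 44.9 with a replicate left out. The cause of these changes was not tested. No paired analysis was possible because the 2 samples form 1 group. Depth was unknown, the lists include background regions, and 33 genes on X leave its shares coarse.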
